A study of Homo sapiens with 2 samples.

Results

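The 30 genes described here encode the actins, the proteins that coat and crosslink actin filaments, the non-muscle and smooth muscle myosin machinery, and the adhesion and turnover proteins of the actin cytoskeleton. They were chosen by gene symbol from a list of contractile and actin cytoskeleton genes, and all 30 were found among the 57736 gene entries of the deposited table. They were measured in A549, an established line of human lung adenocarcinoma cells, here in a form with a red fluorescent reporter of vimentin (VIM RFP) and a genotype given as WT. One library came from A549 cells with an epithelial to mesenchymal transition (EMT) induced by TGF-beta and is called the EMT library after its label. The other came from A549 cells with no treatment and is called the untreated library. Both conditions share the same line and reporter, and no dose of TGF-beta or length of treatment was given in the sources used here. Each library was made from 10 ng of total RNA with AmpliSeq Transcriptome, a multiplex PCR assay that reads short amplified stretches of transcripts.

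Actin filaments are built from actin monomers, wrapped by tropomyosins and caldesmon, bundled by alpha-actinins and filamins, and pulled by myosin II once myosin light chain kinase has phosphorylated its light chain. Cofilin and destrin take filaments apart, and vinculin, zyxin and the PDLIM proteins sit where filaments meet adhesions. In epithelial cells and fibroblasts many of these genes are known targets of serum response factor (SRF) and its MRTF coactivators. TGF-beta is widely described to raise smooth muscle actin, transgelin, calponin and tropomyosins in cells that undergo EMT.

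The deposited values were expected counts, which were rounded to whole counts, 597133 in the EMT library and 674784 in the untreated library. The 10 genes with most counts took 43.6% of the EMT library and 32.6% of the untreated library. Values are given as counts and as CPM, which relates a gene's counts to the library total scaled by the trimmed mean of M-values (TMM). With 1 library per condition there is no spread between replicates, no test and no p-value. Each log2 ratio is the EMT library over the untreated library, and its interval is an exact 95% Clopper-Pearson interval of the ratio, which covers counting error only, since the reads carried no stated molecular identifiers and PCR copies are not separate molecules. Equal counts give a log2 ratio of 0.34 after scaling.

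Keratins of epithelial cells were detected in both libraries, with 32 counts of KRT7 in the EMT library against 179 in the untreated library, and 45 counts of KRT19 in the EMT library against 51 in the untreated library. The 8 epithelial markers summed to 119 counts in the EMT library and 316 in the untreated library, with KRT18 at 0 counts in the EMT library and 3 in the untreated library. Of the 7 that passed the filter described next, 2 were lower and 2 higher by 2-fold or more in the EMT library, with a median log2 ratio of 0.16. EPCAM had 7 counts in the EMT library and 4 in the untreated library, and CDH1 had 4 in the EMT library and 1 in the untreated library, both with intervals that included equality. The vimentin gene VIM had 56 counts in the EMT library against 452 in the untreated library, and the TGF-beta response gene TGFBI had 15 counts in the EMT library against 407 in the untreated library, so both were lower in the library labelled as TGF-beta-induced. The glycolytic enzyme gene GAPDH, read beside them, had 115 counts in the EMT library against 2764 in the untreated library. Its log2 ratio was -4.25 (interval -4.53 to -3.98). Whether the labels of the libraries are right was not tested, and every direction given here follows them. Of 60 ribosomal protein genes that passed the filter, 52 were lower and 2 higher by 2-fold or more in the EMT library, and their median log2 ratio was -3.36. Their part in the values of the actin cytoskeleton genes was not tested.

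The comparison was limited to genes that reached 5 CPM in 1 library or both, which 27 of the 30 members did. CNN2, CNN3 and MYL9 did not. Of the 27, 12 were lower by 2-fold or more in the EMT library, 3 were higher by 2-fold or more, and 12 lay between. Over all 15401 genes that passed, 26.7% were lower and 22% higher by the same size rule. With a counting interval that also excluded equality, 11 members were lower and 2 higher, against 15.4% of all genes lower and 8.4% higher. The median log2 ratio of the members was -0.41, with quartiles of -2.29 and 0.35, and that of all genes was 0.01, with quartiles of -1.12 and 0.92. With the other scalings tried, 12 or 13 members were lower and 2 or 3 higher, except that scaling on the ribosomal protein genes gave 2 members lower and 21 higher. In bulk RNA, fewer cells that express a gene and less RNA of it per cell cannot be told apart.

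All 12 lower members had at least 20 CPM in 1 library. Among the 20 members with at least 20 CPM in 1 library, 12 were lower and 2 higher by 2-fold or more in the EMT library, and their median log2 ratio was -1.71. All 5341 genes at that level held 36% lower and 18.5% higher, with a median of -0.16. Among the 10 members with at least 100 CPM, 7 were lower and 0 higher and the median was -2.94, against 34.3% lower, 17.4% higher and a median of -0.02 over 1014 genes. These filters take the higher of the 2 libraries, so a gene can pass through 1 library alone. Of the 12 lower members, only ACTB, ACTG1, ACTN4 and DSTN also reached 20 CPM in the EMT library. Of the 7, only ACTG1 also reached 100 CPM there. CNN1 and PALLD, the 2 higher members, reached 20 CPM only in the EMT library. The medians at these levels are thus not independent of the filter. The members summed to 7563 counts in the EMT library, 1.27% of it, and to 12750 counts in the untreated library, 1.89% of it. CFL1 alone held 6643 of these counts in the EMT library and 7575 in the untreated library. The other 29 members summed to 920 counts in the EMT library and 5175 in the untreated library, a log2 ratio of -2.16 (95% interval -2.26 to -2.05). Of these counts, ACTG1 held 200 in the EMT library and 2998 in the untreated library, and ACTB held 34 and 463. The summed ratio is thus weighted to ACTG1 and does not describe a typical member, and the median of the 27 members that passed was -0.41.

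**Figure D1:**
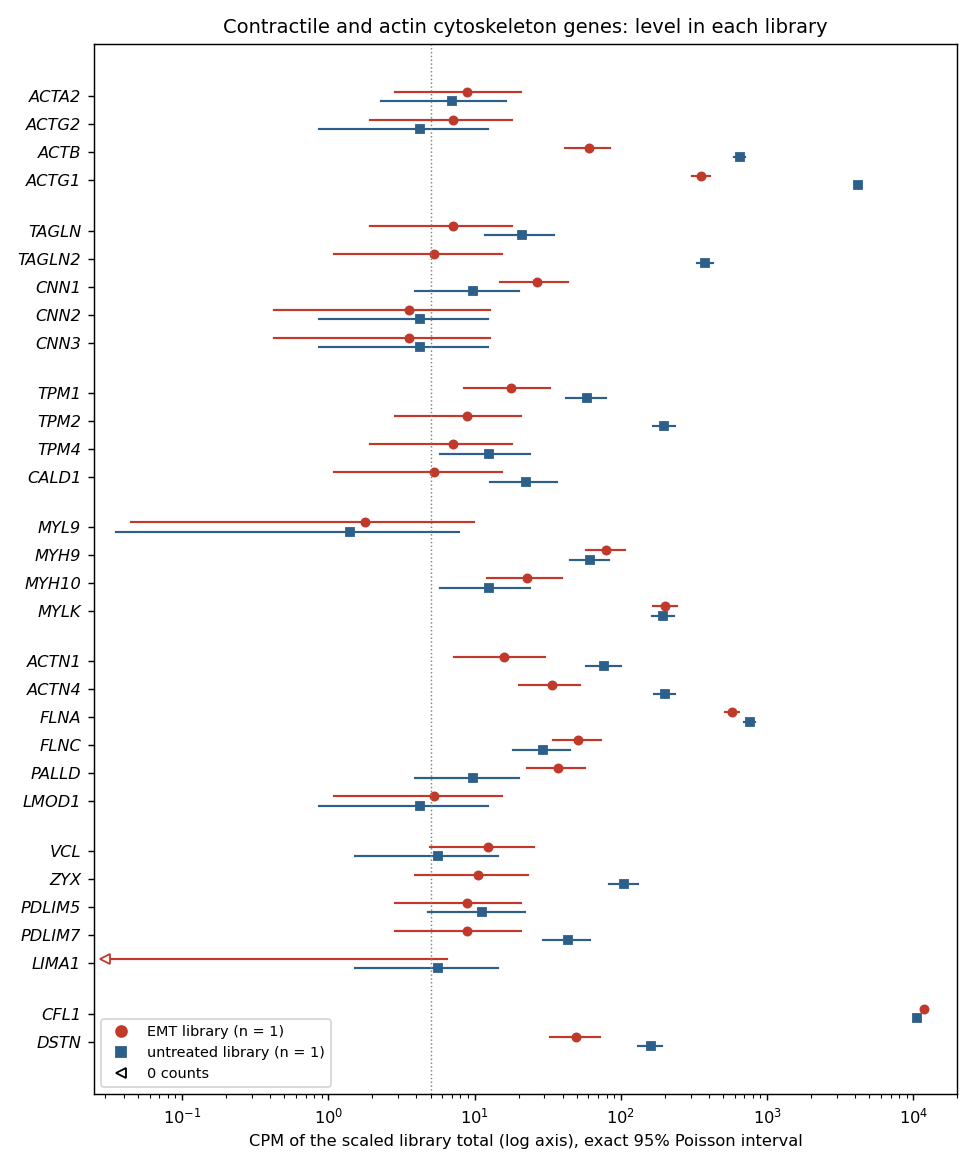
Level of each of the 30 members in the EMT library (red circles) and in the untreated library (blue squares), in CPM of the TMM-scaled total on a log axis, with exact 95% Poisson intervals; the dotted line marks the filter of 5 CPM and the open triangle a count of 0. ACTB, ACTG1, TAGLN2, TPM2 and ZYX sat far lower in the EMT library, CFL1 and MYLK nearly coincided, and CNN1 and PALLD were higher in the EMT library, directions that for ZYX turned under scaling on the ribosomal protein genes.

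The actins split by kind. The cytoplasmic actins, which form the filaments of non-muscle cells, were the lower ones. ACTB (ENSG00000075624, chromosome 7, 5566782 to 5603415, minus strand, hg19) had 34 counts or 60.2 CPM in the EMT library and 463 counts or 649 CPM in the untreated library, 10.8-fold lower (log2 ratio -3.43, interval -3.98 to -2.93). ACTG1 (ENSG00000184009, chromosome 17, 79476997 to 79490873, minus strand) had 200 counts or 354 CPM in the EMT library and 2998 counts or 4204 CPM in the untreated library, 11.9-fold lower (log2 ratio -3.57, interval -3.78 to -3.36). The intervals of the libraries' levels did not overlap for either gene, and under scaling on the ribosomal protein genes both log2 ratios were close to 0, at -0.07 for ACTB and -0.21 for ACTG1.

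The smooth muscle actins were near the detection limit. ACTA2, the alpha smooth muscle actin used as a marker of myofibroblasts, had 5 counts in the EMT library and 5 in the untreated library, with an interval of the log2 ratio of -1.78 to 2.46. ACTG2, the gamma smooth muscle actin of gut muscle, had 4 counts in the EMT library and 3 in the untreated library, with an interval of -1.81 to 3.52. A difference below these bounds was not detectable at this depth.

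The actin genes are near copies of each other, so a read can be placed on more than one of them. In the GENCODE 29 coding sequences, ACTB and ACTG1 were identical at 91.3% of aligned bases, with a longest identical run of 59 bases, and the smooth muscle pair ACTA2 and ACTG2 at 84.7%, with a longest run of 29. The deposited table also lists short gene entries of 84 bases inside ACTB and ACTG1 on the same strand. AC006483.1, inside ACTB, had 34 counts in the EMT library and 573 in the untreated library. AC139149.1, inside ACTG1, had 52 counts in the EMT library and 964 in the untreated library. No source used here says how reads in such an overlap were assigned, so they cannot be told apart. Summed with its inner entry, ACTB gave 67 counts in the EMT library and 1036 in the untreated library, 12.3-fold lower, and ACTG1 gave 252 counts in the EMT library and 3962 in the untreated library, 12.5-fold lower.

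Transgelins and calponins bind along actin filaments. TAGLN2, the transgelin of non-muscle cells (ENSG00000158710, chromosome 1, 159887897 to 159895522, minus strand), had 3 counts or 5.31 CPM in the EMT library and 269 counts or 377 CPM in the untreated library (log2 ratio -6.15, interval -8.44 to -4.59), the lowest ratio of the 27 members. TAGLN, also called SM22-alpha and an early marker of smooth muscle cells, had 4 counts in the EMT library and 15 in the untreated library (log2 ratio -1.57, interval -3.62 to 0.08). The interval of TAGLN reached equality. CNN1, the smooth muscle calponin, had 15 counts in the EMT library and 7 in the untreated library, 2.70-fold higher (log2 ratio 1.44, interval 0.05 to 2.97). CNN2 and CNN3, the calponins of non-muscle cells, each had 2 counts in the EMT library and 3 in the untreated library, too few for a ratio.

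Tropomyosins lie in the groove of the filament and caldesmon restrains myosin on it, and none of these 4 genes was higher in the EMT library under TMM scaling, while TPM1, TPM4 and CALD1 turned under scaling on the ribosomal protein genes. TPM2 (ENSG00000198467, chromosome 9, 35681989 to 35691017, minus strand) had 5 counts or 8.85 CPM in the EMT library and 141 counts or 198 CPM in the untreated library, 22.3-fold lower (log2 ratio -4.48, interval -6.13 to -3.23). TPM1 had 10 counts in the EMT library and 42 in the untreated library (log2 ratio -1.73, interval -2.90 to -0.72). CALD1, caldesmon, had 3 counts in the EMT library and 16 in the untreated library (log2 ratio -2.08, interval -4.50 to -0.27). These 3 genes were lower in the EMT library by more than counting error. TPM4 had 4 counts in the EMT library and 9 in the untreated library, and its interval of -2.99 to 1.01 included equality.

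The 3 myosin genes with a ratio lay within 2-fold under TMM scaling, and all 3 were more than 2-fold higher in the EMT library under scaling on the ribosomal protein genes, at log2 ratios of 3.73 for MYH9, 4.23 for MYH10 and 3.40 for MYLK. MYH9, the heavy chain of non-muscle myosin IIA, had 45 counts or 79.6 CPM in the EMT library and 44 counts or 61.7 CPM in the untreated library (log2 ratio 0.37, interval -0.26 to 1.001). MYH10, the heavy chain of non-muscle myosin IIB, had 13 counts in the EMT library and 9 in the untreated library (log2 ratio 0.87, interval -0.47 to 2.27). MYLK, myosin light chain kinase (ENSG00000065534, chromosome 3, 123328896 to 123603178, minus strand), had 113 counts or 200 CPM in the EMT library and 139 counts or 195 CPM in the untreated library (log2 ratio 0.04, interval -0.33 to 0.41). The interval of MYLK lay inside a 2-fold difference on both sides, and those of MYH9 and MYH10 did not. The sign for MYLK depended on the scaling, with a log2 ratio of -0.18 with the size factors of DESeq2. MYL9, a regulatory light chain of smooth muscle and non-muscle myosin, had 1 count in each library and no ratio. Outside the main exon region the log2 ratios of MYLK and MYH10 were 1.25 (interval 0.01 to 2.60) and 1.34 (interval -0.89 to 3.96), on few counts. The interval of MYH10 there included equality.

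The crosslinkers differed among themselves. The alpha-actinins, which bundle filaments at adhesions and along stress fibres, were lower. ACTN4 (chromosome 19, 39138289 to 39222223, plus strand) had 19 counts or 33.6 CPM in the EMT library and 142 counts or 199 CPM in the untreated library, 5.92-fold lower (log2 ratio -2.57, interval -3.34 to -1.87). ACTN1 had 9 counts in the EMT library and 55 in the untreated library, 4.84-fold lower (log2 ratio -2.28, interval -3.48 to -1.25). Both alpha-actinins turned above 0 under scaling on the ribosomal protein genes, as did every other lower member except ACTB, ACTG1, TAGLN2 and TPM2. PALLD, palladin, a scaffold of dense bodies and stress fibres, had 21 counts or 37.2 CPM in the EMT library and 7 counts or 9.82 CPM in the untreated library, 3.79-fold higher (log2 ratio 1.92, interval 0.63 to 3.40).

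Filamins crosslink filaments into networks and tie them to the membrane. FLNA (ENSG00000196924, chromosome X, 153576892 to 153603006, minus strand) had 325 counts or 575 CPM in the EMT library and 544 counts or 763 CPM in the untreated library (log2 ratio -0.41, interval -0.61 to -0.21), a difference of 1.33-fold that exceeded counting error and turned to a log2 ratio of 2.95 under scaling on the ribosomal protein genes. FLNC, the filamin of striated muscle, had 29 counts in the EMT library and 21 in the untreated library (log2 ratio 0.80, interval -0.06 to 1.68). LMOD1, a leiomodin that nucleates actin in smooth muscle, had 3 counts in each library and is given no ratio.

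Among the adhesion and LIM domain proteins, ZYX and PDLIM7 stood lower in the EMT library. ZYX, zyxin, had 6 counts or 10.6 CPM in the EMT library and 75 counts or 105 CPM in the untreated library, 9.90-fold lower (log2 ratio -3.31, interval -4.80 to -2.12). PDLIM7 had 5 counts in the EMT library and 31 in the untreated library (log2 ratio -2.30, interval -4.02 to -0.92). VCL, vinculin, which links talin to actin, had 7 counts in the EMT library and 4 in the untreated library, 2.21-fold higher with an interval of -0.83 to 3.36 that included equality. PDLIM5 had 5 counts in the EMT library and 8 in the untreated library, with an interval of -2.30 to 1.45. LIMA1, a stabiliser of filaments also called EPLIN, had 0 counts in the EMT library and 4 in the untreated library. A count of 0 allows up to 3 counts, or 5.31 CPM in the EMT library, so no difference in LIMA1 was detectable at this depth.

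Cofilin and destrin sever filaments and carry monomers away. DSTN, destrin, had 28 counts or 49.6 CPM in the EMT library and 114 counts or 160 CPM in the untreated library, 3.23-fold lower (log2 ratio -1.69, interval -2.34 to -1.08). CFL1, the cofilin of non-muscle cells (ENSG00000172757, chromosome 11, 65590493 to 65629497, minus strand), had 6643 counts or 11757 CPM in the EMT library and 7575 counts or 10623 CPM in the untreated library (log2 ratio 0.15, interval 0.10 to 0.19). The direction of CFL1 depended on the scaling, with a log2 ratio of -0.01 on total counts and -0.07 with the size factors of DESeq2. The CFL1 value came almost wholly from a stretch shared with another gene, described with the exon entries, and outside it the log2 ratio of CFL1 was -3.02 (interval -3.73 to -2.39), below that of DSTN.

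**Figure D2:**
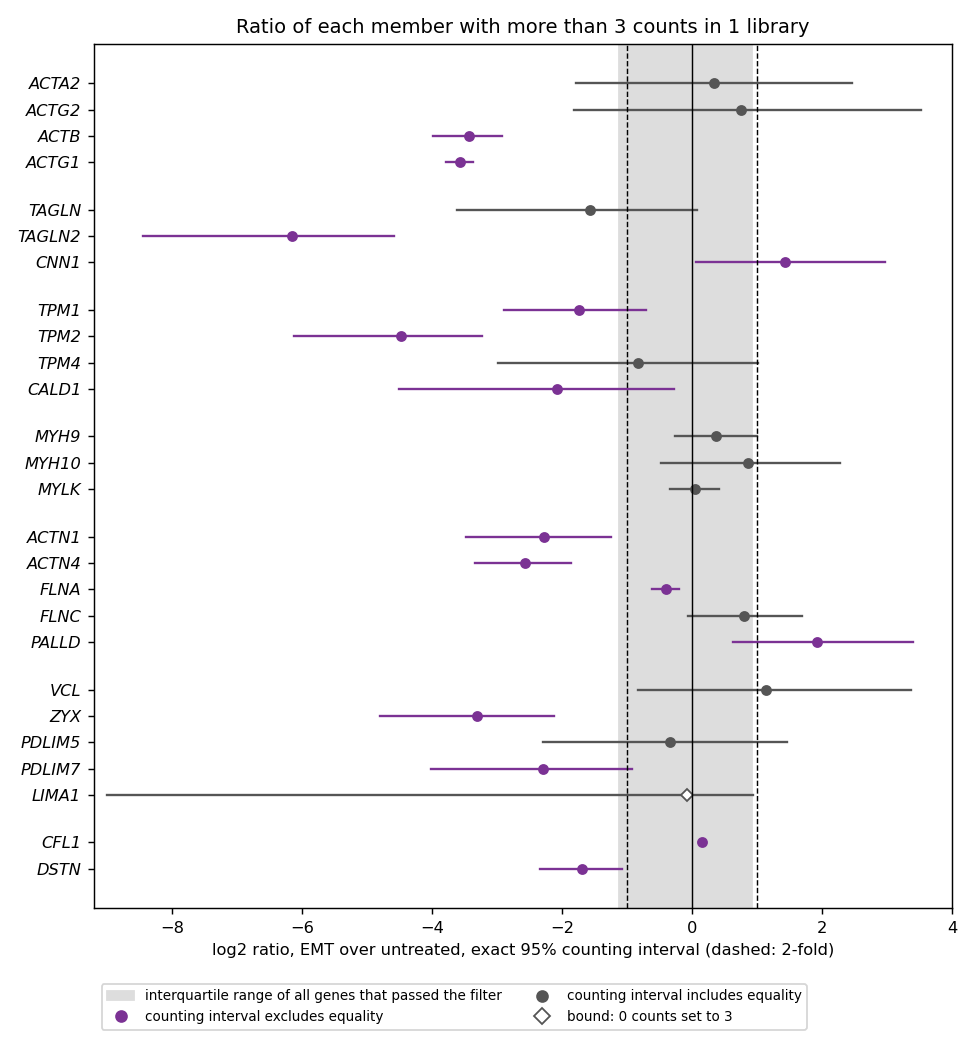
Log2 ratio of each member with more than 3 counts in 1 library, EMT over untreated, with its exact 95% counting interval; the grey band is the interquartile range of all 15401 genes that passed the filter, and dashed lines mark 2-fold. Under TMM scaling 11 members were at least 2-fold lower with an interval that excluded equality, and CNN1 and PALLD were higher, whereas scaling on the ribosomal protein genes gave 2 members lower and 21 higher.

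The exon entries show where along each gene the counts lay. Overlapping exon entries of a gene were merged into exon regions, numbered in the direction of transcription, and their expected counts were summed. For CFL1, region 6 of 12 (chromosome 11, 65624564 to 65625014, 451 bases) held 11527.5 expected counts in the EMT library and 14381.7 in the untreated library. That was 99.8% of the exon counts in the EMT library (exact binomial interval 99.7% to 99.9%) and 98.5% in the untreated library (98.2% to 98.7%). The region is exon 2 of the deposited transcript ENST00000534784, and it lies upstream of that transcript's coding part. The CFL1 level therefore rested on 1 exon. The region's expected counts exceed those of the CFL1 gene entry, 6643 in the EMT library and 7575 in the untreated library, so exon and gene entries do not add up here, and shares are of summed exon counts.

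That exon region overlaps an exon of MUS81, a DNA endonuclease gene on the opposite strand (65624597 to 65624902, plus strand). The gene entry of MUS81 had 6634 counts in the EMT library and 7360 in the untreated library, close to those of CFL1. MUS81 had 6.30 expected counts outside that exon in the EMT library and 6.85 in the untreated library. Without a stated treatment of strand, reads of CFL1 and MUS81 cannot be told apart in the shared stretch. The remaining exon regions of CFL1 held 22.3 expected counts in the EMT library and 225.6 in the untreated library, a log2 ratio of -3.02 (interval -3.73 to -2.39). Of these, region 8 (65622146 to 65623944) held 20.9 in the EMT library and 222.8 in the untreated library. Outside the stretch shared with MUS81, CFL1 was thus 8.14-fold lower in the EMT library, with an interval that overlapped those of ACTB and ACTG1, while the CFL1 entry of region 6 had a log2 ratio of 0.02 (interval -0.02 to 0.05). The MUS81 entry of the shared exon held 1721.2 expected counts in the EMT library and 323.0 in the untreated library, and with both genes' entries summed the shared stretch had a log2 ratio of 0.19 (interval 0.15 to 0.22).

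FLNA likewise held segments with different ratios. Region 16 of 41 (chromosome X, 153590786 to 153590946, hg19, minus strand) held 274.5 expected counts in the EMT library and 305.0 in the untreated library, at a log2 ratio of 0.18 (interval -0.06 to 0.42). It took 85.0% of the exon counts in the EMT library and 56.2% in the untreated library. The neighbouring regions 8 and 9 (153594676 to 153594838 and 153594392 to 153594592) together held 24 expected counts in the EMT library and 217.8 in the untreated library, 7.20-fold lower (log2 ratio -2.85, interval -3.52 to -2.24). The other 38 regions held 24.6 expected counts in the EMT library and 20.2 in the untreated library (log2 ratio 0.66, interval -0.25 to 1.58). The modest difference of the FLNA gene entry was thus the sum of a segment of near equal counts and a pair of exons that were lower in the EMT library. The single exon and the junction within that pair are shown because the exon entries of these segments had different ratios. The junction itself was not measured. Both sequences were read from GENCODE 29 transcripts whose exon lengths equal those of the deposited transcript of the same name. In the junction 40 bases of each exon are given, with the downstream exon in capitals.
FLNA exon 16 of 47, 161 bases: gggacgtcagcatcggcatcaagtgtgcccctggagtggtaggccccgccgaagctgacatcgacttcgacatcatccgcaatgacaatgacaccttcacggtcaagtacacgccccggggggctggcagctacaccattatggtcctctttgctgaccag
FLNA junction of exons 7 and 8 of 47: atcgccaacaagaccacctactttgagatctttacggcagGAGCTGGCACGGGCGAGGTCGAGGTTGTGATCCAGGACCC

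The counts of several lower members lay in a pair of neighbouring exon regions. For TAGLN2 regions 6 and 7 of 7 held 99.6% of the exon counts of both libraries summed. Region 6 had 2.19 expected counts in the EMT library and 193.2 in the untreated library, and region 7 had 0.81 in the EMT library and 74.6 in the untreated library. For TPM2 regions 2 and 3 of 8 held 96.7%, with 2.69 and 1.89 expected counts in the EMT library against 89.8 and 47.1 in the untreated library. Both exons of each pair were lower in the EMT library. The values of a pair are fractions, and for TAGLN2 they are parts of a gene entry of 3 counts in the EMT library. The exons of a pair may thus share reads, and their like directions are not independent. For ACTN4 regions 15 and 16 of 25 held 96.3%, with 15.7 and 1.35 expected counts in the EMT library against 124.0 and 15.0 in the untreated library. For ZYX regions 3 and 4 of 11 held 97.5%, with 0.81 and 3.17 expected counts in the EMT library against 49.3 and 25.5 in the untreated library. The junctions within the pairs of TAGLN2, TPM2 and ACTN4 are shown because they join exons of the regions with most counts. The deposited values hold no reads across junctions. Region 7 of TAGLN2 and region 15 of ACTN4 are longer than the exons shown from them. Again 40 bases of each exon are given, with the downstream exon in capitals.
TAGLN2 junction of exons 3 and 4 of 5: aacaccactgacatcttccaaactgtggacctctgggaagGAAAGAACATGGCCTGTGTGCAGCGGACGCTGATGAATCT
TPM2 junction of exons 2 and 3 of 9: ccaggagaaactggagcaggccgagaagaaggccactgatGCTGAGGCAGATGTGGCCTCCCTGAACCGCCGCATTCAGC
ACTN4 junction of exons 5 and 6 of 14: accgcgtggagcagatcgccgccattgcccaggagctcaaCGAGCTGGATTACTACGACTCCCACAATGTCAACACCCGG

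In ACTG1 the counts were spread over 3 regions that gave like ratios. Region 4 of 6 had 121.3 expected counts in the EMT library and 1725.0 in the untreated library (log2 ratio -3.50), and region 5 had 47.4 in the EMT library and 861.8 in the untreated library (log2 ratio -3.86). Region 3 had 36.9 in the EMT library and 489.9 in the untreated library (log2 ratio -3.39). The lower level of ACTG1 did not rest on 1 exon. In ACTB 1 region of 1730 bases, which merges several exons, held 91.7% of the exon counts in the EMT library and 99.9% in the untreated library. In DSTN regions 1 and 3 held 96.9% of the counts, with log2 ratios of -1.64 and -1.77. Regions of a gene may share reads, so like ratios within ACTG1 or DSTN need not be independent.

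MYLK, CNN1 and PALLD each had most of their counts in 1 region. Region 36 of 38 of MYLK (123339054 to 123344163) held 96.8 expected counts in the EMT library and 130.1 in the untreated library, which was 85.0% of the exon counts in the EMT library and 93.5% in the untreated library. The rest of the gene held 17.1 in the EMT library and 9 in the untreated library (log2 ratio 1.25, interval 0.01 to 2.60). In CNN1 the last region, 11 of 11, had 13 expected counts in the EMT library and 4 in the untreated library. In PALLD region 19 of 31 had 18 expected counts in the EMT library and 6 in the untreated library, 85.7% of the exon counts in each. Outside these regions CNN1 had 2.34 expected counts in the EMT library and 2.78 in the untreated library, and PALLD had 3 in the EMT library and 1 in the untreated library, too few for a ratio. The higher levels of CNN1 and PALLD each rested on 1 exon region. VCL had no such region, with 3 expected counts in the EMT library and 1 in the untreated library in region 1, and 2 in each library in region 4.

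Regions within a gene also differed among the remaining members. In ACTN1 region 23 of 28 had 0 expected counts in the EMT library and 35.8 in the untreated library, and region 21 had 0 in the EMT library and 11.7 in the untreated library. Beyond both regions ACTN1 had 9 expected counts in the EMT library and 7 in the untreated library (log2 ratio 0.70, interval -0.90 to 2.36), so its lower level rested on these 2 regions. In PDLIM7 regions 12 and 13 of 14 had 0 expected counts each in the EMT library, against 15.1 and 8.27 in the untreated library. Outside region 12 PDLIM7 had 5 expected counts in the EMT library and 15.3 in the untreated library, with region 13 included. That log2 ratio was -1.25, with an interval of -3.06 to 0.28 that included equality, so the lower level of PDLIM7 rested mostly on these 2 regions. MYH9 was the most evenly spread member with at least 20 CPM. Its region 34 of 44 held 42.8% of the exon counts in the EMT library and 24.9% in the untreated library, with 19 expected counts in the EMT library and 11.0 in the untreated library.

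**Figure D3:**
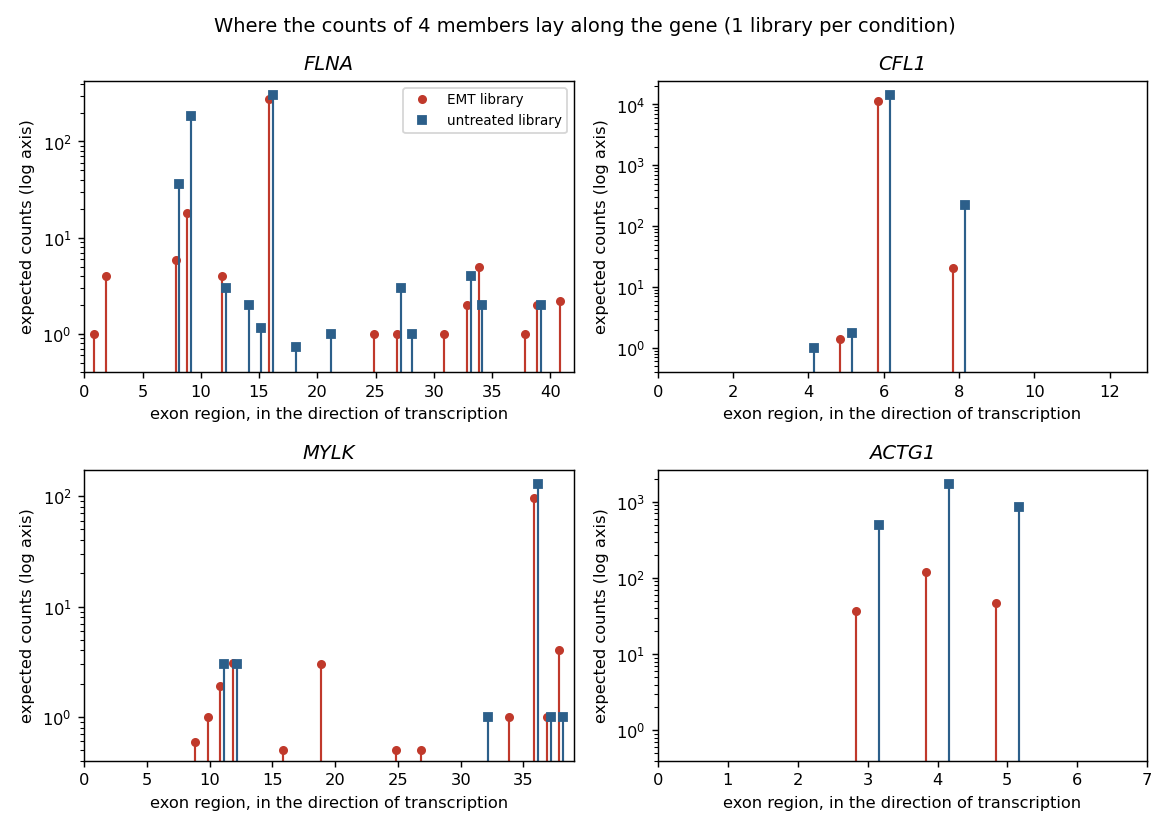
Expected counts by exon region of FLNA, CFL1, MYLK and ACTG1, numbered in the direction of transcription, in the EMT library (red circles) and the untreated library (blue squares), on a log axis, with values under 0.5 not drawn. The tallest FLNA and CFL1 regions were of near equal height in both libraries while FLNA regions 8 and 9 and CFL1 region 8 were lower in the EMT library, and all 3 ACTG1 regions were lower there.

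The share of a gene's counts in 1 region was set beside its ratio for all genes with at least 20 CPM in 1 library and at least 2 regions. The share was computed on both libraries summed, so it is not independent of the ratio, and this comparison was added after seeing the data. Of 1922 genes with 50% to under 80% of their counts in 1 region, 49.0% were lower and 14.4% higher by 2-fold or more in the EMT library, and the median log2 ratio was -0.94. Of 1411 genes with 90% or more in 1 region, 20.1% were lower and 23.2% higher and the median was 0.21. The members lay mostly in the middle class, where 8 of 11 were lower and 1 higher. In the class of 90% or more, ACTB was lower and CFL1 was between. Of the 842 genes under 50%, 36% were lower and 16.2% higher, and among the members FLNC, MYH9 and PDLIM7 there 1 was lower. Of the 604 genes with 80% to under 90%, 30.8% were lower and 20.4% higher, and among ACTN4, MYLK, PALLD and TAGLN 2 were lower and 1 higher.

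**Figure D4:**
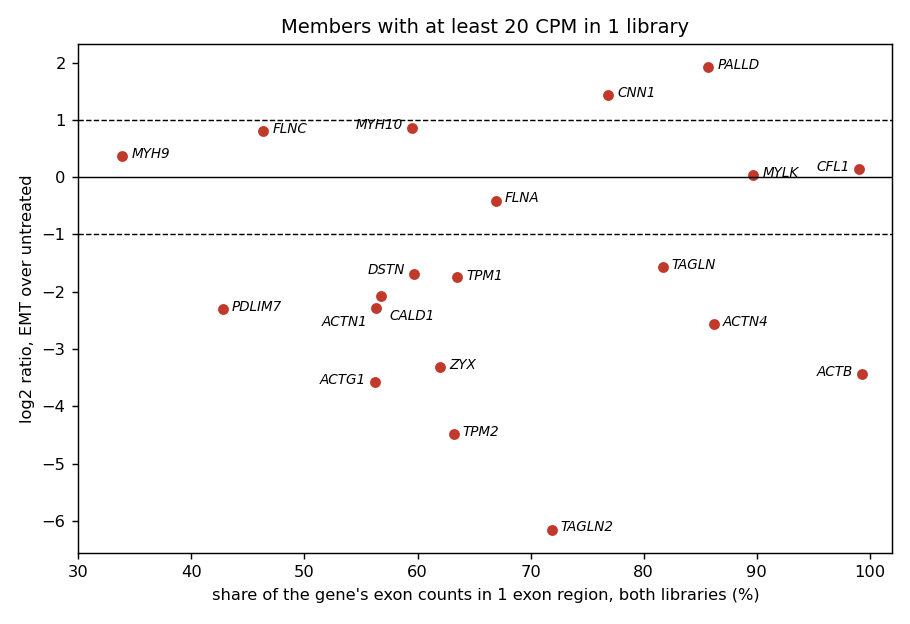
Share of a member's exon counts in 1 exon region, over both libraries summed (x axis, percent), against its log2 ratio of EMT over untreated (y axis), for the 20 members with at least 20 CPM in 1 library; dashed lines mark 2-fold. Of the 11 members with 50% to under 80% of their counts in 1 region, 8 were at least 2-fold lower under TMM scaling, while MYLK and CFL1, at 89.7% and 99.1%, lay near 0.

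Promoters were examined for the CArG box, the motif bound by SRF, in windows from 250 bases before to 50 bases after the transcription start (RefSeq, GRCh38.p14). A window was given for 27 of the 30 members, 44 windows in all, and ACTB, TAGLN and MYL9 had none. The box, which reads alike on both strands and was the only motif searched, was found in 7 of the 44 member windows and in 454 of all 35116 windows, 1.29%. The 7 members were ACTG1, ACTG2, FLNA, MYLK, CNN2, ACTN1 and TPM4. Members with the box did not share a direction. ACTG1 and ACTN1 were at least 2-fold lower in the EMT library, FLNA, MYLK, ACTG2 and TPM4 lay between, and CNN2 had too few counts for a ratio. The first base of the box lay at position -94 from the start in ACTG1, FLNA and MYLK alike, whose log2 ratios were -3.57, -0.41 and 0.04. These 3 windows are shown for that contrast, and that of ACTG2 because it held 2 boxes, at -110 and -73. Capitals mark the box.
ACTG1 chr17:81512750-81513049, minus strand: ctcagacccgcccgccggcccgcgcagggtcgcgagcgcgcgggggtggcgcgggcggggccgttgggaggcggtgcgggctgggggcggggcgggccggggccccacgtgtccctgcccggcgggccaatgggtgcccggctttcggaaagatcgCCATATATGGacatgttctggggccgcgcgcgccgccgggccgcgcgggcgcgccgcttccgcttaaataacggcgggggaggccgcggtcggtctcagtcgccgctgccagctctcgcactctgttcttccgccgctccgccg
FLNA chrX:154374585-154374884, minus strand: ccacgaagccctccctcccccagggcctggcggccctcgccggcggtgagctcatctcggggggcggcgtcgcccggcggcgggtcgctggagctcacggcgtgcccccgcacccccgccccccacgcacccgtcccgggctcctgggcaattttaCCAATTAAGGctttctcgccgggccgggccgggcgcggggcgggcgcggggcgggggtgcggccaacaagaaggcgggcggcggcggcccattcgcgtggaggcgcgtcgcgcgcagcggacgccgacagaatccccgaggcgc
MYLK chr3:123620499-123620798, minus strand: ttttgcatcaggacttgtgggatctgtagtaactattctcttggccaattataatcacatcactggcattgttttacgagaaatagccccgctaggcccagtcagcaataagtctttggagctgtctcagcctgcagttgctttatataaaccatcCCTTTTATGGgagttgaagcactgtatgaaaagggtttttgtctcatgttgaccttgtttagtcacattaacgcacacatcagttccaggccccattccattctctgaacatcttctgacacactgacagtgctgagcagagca
ACTG2 chr2:73892758-73893057, plus strand: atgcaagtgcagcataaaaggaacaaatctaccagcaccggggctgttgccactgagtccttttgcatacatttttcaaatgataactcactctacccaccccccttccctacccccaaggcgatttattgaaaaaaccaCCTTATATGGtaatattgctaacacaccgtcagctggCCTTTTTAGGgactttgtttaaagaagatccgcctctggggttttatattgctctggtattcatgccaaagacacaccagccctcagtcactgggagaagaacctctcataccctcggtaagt

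Genes that build and recycle filaments were given by a list of 30, of which 27 passed the filter. By the 2-fold rule 20 were lower and 2 higher in the EMT library, and the median log2 ratio was -2.25. The monomer-binding thymosin TMSB10 had 33 counts in the EMT library and 1693 in the untreated library (log2 ratio -5.35), and TMSB4X had 20 in the EMT library and 244 in the untreated library (log2 ratio -3.27). COTL1, coactosin-like protein, had 1 count in the EMT library and 105 in the untreated library, and the bundling protein FSCN1, fascin, had 4 in the EMT library and 62 in the untreated library. The ARPC1 subunits of the Arp2/3 complex, which nucleates branched filaments, went in opposite directions. ARPC1A had 3 counts in the EMT library and 54 in the untreated library (log2 ratio -3.83), whereas ARPC1B had 507 counts in the EMT library and 50 in the untreated library (log2 ratio 3.68, interval 3.26 to 4.13). Of the ARPC1B exon counts, 98.6% in the EMT library lay in 1 region, with 501.5 expected counts there against 31.5 in the untreated library, and the other regions with at least 5 counts had 2 and 1 in the EMT library against 6 and 5 in the untreated library.

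The list of RhoA, ROCK and myosin control genes had 25 members, of which 19 passed. By the 2-fold rule 11 were lower and 3 higher in the EMT library, and the median log2 ratio was -1.59. The GTPases RHOB and RHOA had 18 and 7 counts in the EMT library against 164 and 81 in the untreated library. MYL12B, a regulatory light chain of non-muscle myosin II, had 3 counts in the EMT library and 107 in the untreated library (log2 ratio -4.82, interval -7.12 to -3.23). The calmodulin genes CALM2 and CALM3, whose product activates myosin light chain kinase, had 5 and 9 counts in the EMT library against 108 and 48 in the untreated library. PPP1CA, a catalytic subunit of protein phosphatase 1, had 7 counts in the EMT library and 48 in the untreated library. The kinase ROCK1, named after its values were seen, had 15 counts in the EMT library and 2 in the untreated library (log2 ratio 3.24, interval 1.14 to 6.41).

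The list of SRF and MRTF regulators and targets had 20 members, of which 18 were found under the names used, with MRTFA and MRTFB entered as MKL1 and MKL2, and 14 passed. Of these, 7 were lower and 2 higher by the 2-fold rule in the EMT library, and the median log2 ratio was -0.87. SRF itself had 5 counts in the EMT library and 6 in the untreated library. The immediate early genes JUNB and FOS had 26 and 5 counts in the EMT library against 128 and 32 in the untreated library. EGR1, an immediate early gene named for comparison, had 115 counts in the EMT library and 168 in the untreated library. Its log2 ratio was -0.21, with an interval of -0.57 to 0.14 that included equality. The LIM protein genes CSRP1 and FHL2 had 14 and 4 counts in the EMT library against 52 and 25 in the untreated library. TPM3, a tropomyosin, and ANKRD1, a target of YAP as well, had 0 counts each in the EMT library against 30 and 8 in the untreated library.

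Of 20 focal adhesion genes 17 passed. By the 2-fold rule 10 were lower and 1 higher in the EMT library, and the median log2 ratio was -1.51. LASP1, a LIM and SH3 protein, had 19 counts in the EMT library and 90 in the untreated library (log2 ratio -1.91). PTK2, focal adhesion kinase, had 9 counts in the EMT library and 33 in the untreated library. The tensins TNS1 and TNS3 had 11 and 2 counts in the EMT library against 39 and 17 in the untreated library, and ILK, integrin-linked kinase, had 0 in the EMT library and 18 in the untreated library. These 4 lists had lower medians than all genes under TMM scaling, and like the members they would turn upward under scaling on the ribosomal protein genes, which shifts every log2 ratio by the same amount.

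Markers of cells rich in these proteins were set beside the members. The 8 smooth muscle markers, of which CNN1, LMOD1 and ACTG2 are also members, summed to 136 counts in the EMT library and 132 in the untreated library, with none at 0. Of these 8, 0 were lower and 2 higher by the 2-fold rule, against 26.7% lower and 22% higher over all genes that passed. The 2 were CNN1 and SYNPO2, and SYNPO2 had 8 counts in the EMT library and 2 in the untreated library. MYH11, the smooth muscle myosin heavy chain, had 54 counts in the EMT library and 43 in the untreated library (log2 ratio 0.66, interval 0.06 to 1.28). DES, desmin, had 33 in the EMT library and 45 in the untreated library (log2 ratio -0.11, interval -0.81 to 0.57). The 9 fibroblast markers summed to 414 counts in the EMT library and 267 in the untreated library, of which COL1A1 gave 356 in the EMT library and 196 in the untreated library. LUM and FAP were at 0 in both libraries, and COL3A1 at 0 in the EMT library.

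**Figure D5:**
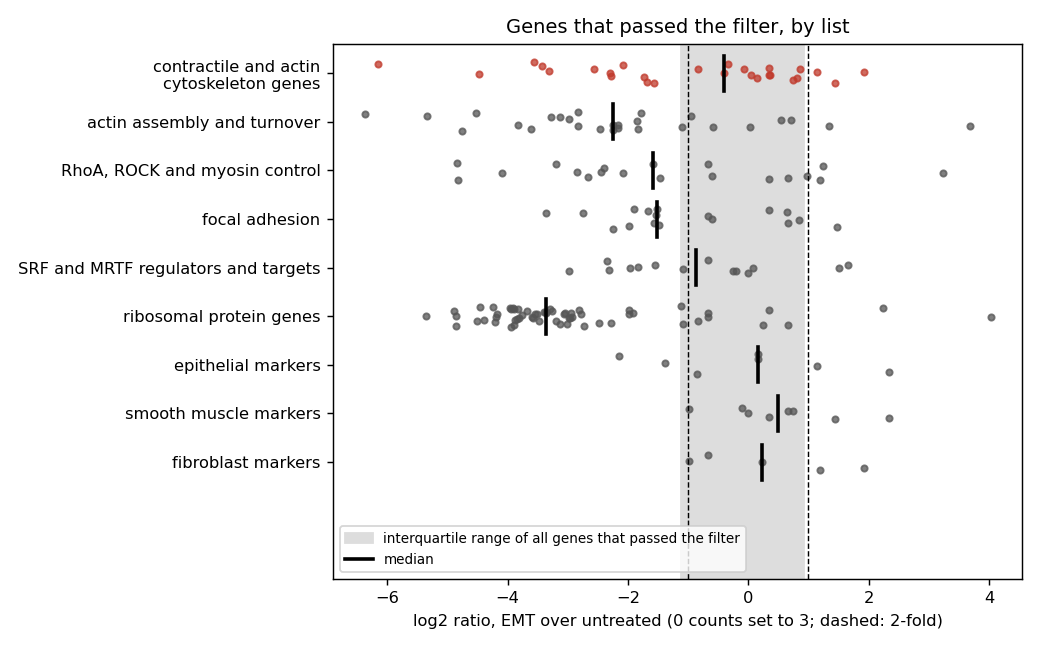
Log2 ratio of EMT over untreated under TMM scaling for the genes of each list that passed the filter, 1 point per gene, with the median of each list as a black bar, the interquartile range of all genes in grey and 2-fold as dashed lines; vertical scatter has no meaning and a count of 0 was set to 3. The members (red) spread from -6.15 to 1.92 around a median of -0.41, the actin assembly list has a median of -2.25 and the ribosomal protein genes one of -3.36, and scaling on the ribosomal protein genes would move all points up by the same amount.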

How the data were processed

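The authors deposited 1 table of expected counts, which need not be whole, on genes, transcripts and exons, with hg19 coordinates. DESeq and hg19 appear in the submitters' processing notes with no role; no source used here gives the aligner, the counting program or its use of strand. Per the labels' protocols, libraries were made with the AmpliSeq Transcriptome kit. The positions of its amplicons were not used here.

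Gene entries were rounded to whole counts, with ties upward, and scaled by TMM in edgeR 4.0.16 (R 4.3.3), with factors of 0.946 for the EMT library and 1.06 for the untreated library. No model was fitted, since each condition has 1 library. A count of 0 was set to a floor of 3 counts, 5.31 CPM in the EMT library and 4.21 CPM in the untreated library, and no ratio is given where both counts are at or under 3; medians and tallies hold such genes at the value this rule gives. Intervals came from scipy 1.17.1 and tables from pandas 2.3.3 in Python 3.11.15. The ratio procedure was run on simulated Poisson counts. These hold counting error only and no PCR copies, so the run checks the calculation and not the error of these libraries.

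The members and the lists were chosen with earlier results of these data known. All 30 members are accounted for; genes of other lists were named where at least 2-fold different with an interval excluding equality, at most 6 per list by summed count, of which 1 is not reported here. Alternatives were total counts, upper quartile scaling, DESeq2 1.42.0 size factors, other filters, log2(CPM + 1), unrounded counts and counts outside the main exon region, and, chosen after seeing the data, scaling on the ribosomal protein genes, leaving out ACTB, ACTG1 and CFL1, and single exon entries.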

Additional observations from a re-analysis of the deposited data

How the results depend on the processing

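Without replicates no test exists, and no replicate could be left out. No paired analysis was possible because each condition has 1 library. The counts of members at least 2-fold lower and higher stayed within 1.5 times of 12 and 3 under every alternative but 1. The median log2 ratio of the members was -0.41, and moved to -0.84 with DESeq2 size factors and to -0.57 on total counts, where the medians of all genes were -0.30 and -0.15. It was -0.30 with a filter of 1 CPM and likewise with no filter, -1.71 with 20 CPM, -0.62 with more than 3 counts in 1 library, -0.75 as log2(CPM + 1), and -1.16 over the 22 members with counts outside their main exon region. With libraries scaled on the ribosomal protein genes, an alternative chosen after seeing the data, there were 2 members lower and 21 higher, and the median was 2.95, beside 3.38 for all genes. It turned the log2 ratios of PDLIM7 (1.07), CALD1 (1.28), ZYX (0.053), TAGLN (1.79), ACTN1 (1.09), TPM1 (1.63), ACTN4 (0.80) and DSTN (1.67), by construction, since it adds one constant to all genes. Among members under 2-fold it also changed the sign of TPM4 (2.53), FLNA (2.95), PDLIM5 (3.02) and LIMA1 (3.28), so that 12 of 26 ratios changed sign. Outside the main exon region the log2 ratio was -3.02 for CFL1, -1.94 for FLNA, 1.25 for MYLK, -0.74 for ACTN1 and -2.04 for ZYX. Taking single exon entries in place of merged regions, also chosen after seeing the data, lowered the share in 1 exon to 89.7% for ACTB, 41.7% for ACTG1 and 79.7% for MYLK. Over all single-gene results and settings, 259 of 297 stayed within their interval, 30 moved beyond it, and 8, at least 2-fold lower under TMM, changed sign. Filters of 1 CPM, 20 CPM, more than 3 counts and none, and leaving out ACTB, ACTG1 and CFL1, cannot change a single gene's ratio. Their 26, 20, 26, 26 and 23 results stayed by construction, so the 259 overstate how stable the ratios were. Depth limits ACTA2, ACTG2, CNN2, CNN3, MYL9, LMOD1 and LIMA1, which had at most 5 counts in either library.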
